A study of Rattus norvegicus with 56 samples.

Results

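The libraries described here come from the hippocampus of rats sampled 2 months (2 m) after a traumatic brain injury (TBI) or a sham operation. They were chosen by their labels: every library of the 2 m interval with at least 100000 counts, which left 3 TBI rats (X749, X748 and X750) and 4 sham rats (X751, X777, X752 and X776), 7 of the 56 libraries of the series. The fourth TBI rat, X747, had 69628 counts and was left out. The injury was a fluid percussion injury (FPI), in which a pulse of fluid strikes the exposed dura, and sham rats are the uninjured controls of that model. Each library is the small RNA of 1 rat, and the strain, sex and age of the rats are not given in the sources used here. The wider study sampled 28 TBI and 28 sham rats over 7 intervals from 24 h to 12 m, to ask which hippocampal miRNAs stay altered long after injury.

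A miRNA is a short RNA, cut from a hairpin precursor, that guides a silencing complex to messenger RNAs and lowers their translation and stability. Target choice rests mainly on the seed, bases 2 to 8 from the 5′ end, so miRNAs with the same seed can act on overlapping sets of messages. In the brain, miR-155 and miR-146a are the best known miRNAs of the microglial response: both are transcribed under NF-kB downstream of toll-like receptors, miR-155 acts mostly to sustain inflammatory signaling, and miR-146a represses the adaptor proteins IRAK1 and TRAF6 and so restrains it. The hippocampus holds mainly neurons, astrocytes, oligodendrocytes and microglia, and it lies against the choroid plexus of the lateral ventricle, whose epithelium is rich in miR-204 and miR-211.

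The mature sequences that the results turn on are printed 5′ to 3′ as RefSeq gives them, with the seed in capitals and positions in the GRCr8 assembly. The immune set is shown first, because its 2 leading members had the lowest p-values of the interval and because miR-146a-5p and miR-146b-5p share the seed GAGAACU.
miR-155-5p: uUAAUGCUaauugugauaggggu
miR-146a-5p: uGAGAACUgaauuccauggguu
miR-146b-5p: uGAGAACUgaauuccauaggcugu
miR-142-5p: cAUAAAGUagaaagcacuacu
The mature sequence of miR-155-5p lies at chr11:37261117-37261139 on the plus strand, and that of miR-146a-5p at chr10:28350053-28350074 on the minus strand. The mature sequence of miR-146b-5p lies at chr1:255144874-255144897 on the plus strand, and that of miR-142-5p at chr10:73055119-73055139 on the plus strand within the span of Tspoap1.

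The next set shows families in which members with a common seed were compared. The miR-34 members share GGCAGUG, the miR-15/16 members share AGCAGCA, and miR-204-5p and miR-211-5p share UCCCUUU.
miR-34a-5p: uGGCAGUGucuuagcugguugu
miR-34b-5p: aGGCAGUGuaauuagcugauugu
miR-34c-5p: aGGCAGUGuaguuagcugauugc
miR-195-5p: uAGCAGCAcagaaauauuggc
miR-322-5p: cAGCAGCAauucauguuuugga
miR-497-5p: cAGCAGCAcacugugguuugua
miR-204-5p: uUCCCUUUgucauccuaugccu
miR-211-5p: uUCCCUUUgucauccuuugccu
miR-34b and miR-34c lie together on the minus strand (chr8:60306657-60306679 and chr8:60306133-60306155), while miR-34a stands alone at chr5:165815971-165815992. miR-195 and miR-497 are neighbors at chr10:55450509-55450529 and chr10:55450172-55450193, and miR-322 is X-linked, at chrX:137726198-137726219 on the minus strand. miR-204 lies within Trpm3 (chr1:229743493-229743514) and miR-211 within Trpm1 (chr1:127189353-127189374). The last set holds the first of the lower miRNAs, an abundant higher one and the miR-1843 pair, whose sequences overlap so closely that reads could be divided between them.
miR-674-5p: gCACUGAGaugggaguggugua
miR-7a-5p: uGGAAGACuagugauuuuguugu
miR-1843a-5p: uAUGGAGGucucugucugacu
miR-1843b-5p: aUGGAGGUcucugucugacuuag
miR-674 is at chr3:124507180-124507201, and miR-7a-5p can come from 2 loci, at chr17:6278710-6278732 within Hnrnpk and at chr1:142215818-142215840.

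Totals ran from 5331876 to 8628173 counts in the sham libraries and from 8683086 to 12468979 in the TBI libraries, so all 3 TBI libraries were deeper than all 4 sham libraries, and depth and injury cannot be told apart from these groups. Levels are given in CPM (counts scaled to a common library total), and 0 counts in the shallowest of the 7 libraries would allow a level of up to 0.563 CPM (3 counts), a limit that covers counting error only, since PCR copies without molecular identifiers are not independent molecules. The CPM values are counts divided by the library total after TMM scaling, which sets libraries level on the bulk of their miRNAs. miR-9a-5p, a neuronal miRNA, took 18.2% of the counts, miR-99a-5p 12.8%, miR-26a-5p 10.6%, miR-7a-5p 4.36% and miR-218a-5p 4.23%. All 7 neuronal markers of a list set for this purpose had counts, and their sum lay between 181620 and 247600 CPM in sham rats and between 201240 and 353850 CPM in TBI rats. Most of this sum was miR-9a-5p, at 287162 CPM in X749, the TBI rat with the highest sum. The TMM factors were lower in every TBI library (0.875 to 0.971) than in every sham library (0.996 to 1.10). Scaling by the total alone moved the median log2 fold change of all tested miRNAs from -0.03 to -0.21, and the fold changes below are relative to the TMM median.

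Of 241 miRNAs with enough counts to test, 109 were higher and 132 lower after TBI. None reached an adjusted p of 0.05 by edgeR quasi-likelihood testing after Benjamini-Hochberg correction (0%), and the lowest adjusted p was 0.252, shared by miR-155-5p and miR-146a-5p. At an unadjusted p under 0.05 there were 9 miRNAs higher (3.73%) and 8 lower (3.32%). In 9 miRNAs all 3 TBI rats lay above all 4 sham rats (3.73%), and in 8 they lay below (3.32%). With scaling by total count the unadjusted count was 3 higher and 33 lower. Without rat X751 it was 11 in all, without X749 it was 36 and without X750 it was 44, against 17 with all 7 rats.

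miR-155-5p and miR-146a-5p were called by some other tests of the same counts, though not by the older quasi-likelihood fit of edgeR. The likelihood ratio test of edgeR called these 2 miRNAs (0.83%), with an adjusted p of 0.0490 for both. DESeq2 called these 2 alone as well, with adjusted p-values for miR-155-5p of 0.0230 in its Wald test and 0.0205 in its likelihood ratio test, and for miR-146a-5p of 0.0258 and 0.0234. In a joint quasi-likelihood fit of 55 libraries, which estimates the spread between rats from all 14 groups, 2 of 247 miRNAs were called at 2 m (0.81%): miR-146a-5p (adjusted p 0.0202) and miR-674-5p (adjusted p 0.0456), with miR-155-5p at an adjusted p of 0.0953.

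**Figure D1:**
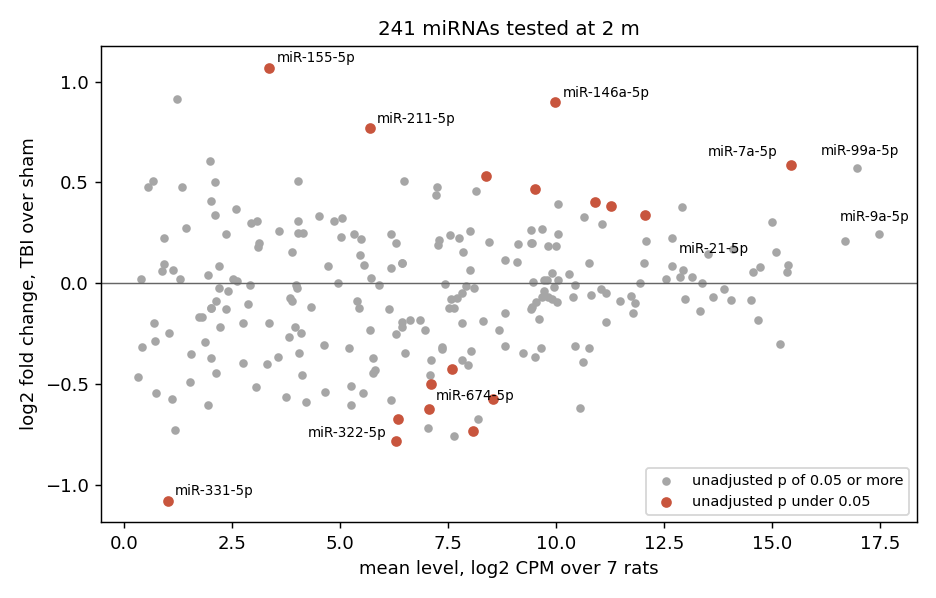
Log2 fold change of TBI over sham (vertical axis) against mean level in log2 CPM over 7 rats (horizontal axis) for the 241 miRNAs tested at 2 m, with 1 point per miRNA. The 17 miRNAs with an unadjusted p under 0.05 are colored, and miR-155-5p and miR-331-5p, both of low level, lie at the ends of the range at 1.07 and -1.08.

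miR-155-5p stood at 6.24, 8.32, 5.97 and 6.59 CPM in the 4 sham rats and at 14.7, 10.9 and 17.1 CPM in TBI rats X749, X748 and X750. The groups did not overlap, and the counts behind these values were 36 to 56 reads per sham library and 92 to 160 per TBI library. Its level was 2.10-fold higher after TBI (log2 fold change 1.07, SE 0.25). A two-sided exact permutation test over the 35 splits of the 7 rats gave p = 0.0571, the smallest that a design of 3 against 4 allows, so no single miRNA could reach 0.05 in it.

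miR-146a-5p, the feedback inhibitor of the same pathway, was far more abundant. Sham rats had 620.1, 801, 817 and 706 CPM, and TBI rats had 1132, 1063 and 1919 CPM. Rat X750 stood well above the other TBI rats, which were close to each other, and all 3 were above the highest sham rat. The log2 fold change was 0.90 (SE 0.22), or 1.86-fold, and with any 1 rat left out it remained between 0.66 and 1.05. X750 also had the highest miR-155-5p of the 7 rats.

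miR-146b-5p, which shares the miR-146a seed but is transcribed from another chromosome, was at 3722, 4203, 3982 and 3422 CPM in sham rats and at 5175, 4564 and 4817 CPM after TBI. Its groups did not overlap either, although its log2 fold change was smaller, 0.34 (SE 0.14, adjusted p 0.545), or 0.20 with the shallow library of X747 in the fit, and here X750 was not the highest rat. miR-142-5p, a miRNA of all blood-derived cells that marks microglia and leukocytes in brain tissue, was at 138, 97.2, 149 and 128 CPM in sham rats and at 153, 181 and 186 CPM in TBI rats. The lowest TBI rat exceeded the highest sham rat by a small margin (log2 fold change 0.44, SE 0.20, adjusted p 0.572).

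The other miRNAs that the study singled out in the hippocampus gave less. miR-21-5p, a widely expressed miRNA of reactive glia and injured tissue, was at 7443, 5099.5, 7824 and 5149.9 CPM in sham rats and 7358, 5182 and 7759 CPM in TBI rats, so both groups spanned the same range. Its log2 fold change was 0.09 (SE 0.21), and its sign turned with the scaling. miR-223-5p, the minor arm of a neutrophil and monocyte miRNA, was too rare to test in the fit of the 7 libraries. It had 2 to 3 reads in the sham libraries and 5 to 6 in the 3 TBI libraries. In the joint quasi-likelihood fit of 55 libraries its log2 fold change at 2 m was 0.82 (SE 0.73, adjusted p 0.609).

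A list of 14 immune regulators was chosen with earlier results of these data known. Of its 13 tested members 9 were higher and 4 lower, beside 109 and 132 of all 241 miRNAs, and the median log2 fold change was 0.20 against -0.03 over all. In 3 of the 13, miR-155-5p, miR-146a-5p and miR-146b-5p, the unadjusted p was under 0.05, all of them higher, beside 9 of 241 (3.73%) over all miRNAs, and 0 had an adjusted p under 0.05. The same list held miR-34a-5p at -0.67 and let-7i-5p, which can target toll-like receptor 4, at 0.30 (SE 0.18). The summed leukocyte markers did not separate the groups: the sum of miR-142-5p, miR-150-5p and miR-223-5p was 867 to 1083 CPM in sham rats and 830 to 1137 CPM in TBI rats (two-sided exact permutation p = 0.8), with none of the 3 at 0. Most of this sum was miR-150-5p, at 718 to 955 CPM in sham rats and 677 to 950 CPM in TBI rats. The sum therefore says little about miR-142-5p and miR-223-5p. Bulk tissue cannot tell fewer or more cells of a type from less or more RNA in each cell.

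**Figure D2:**
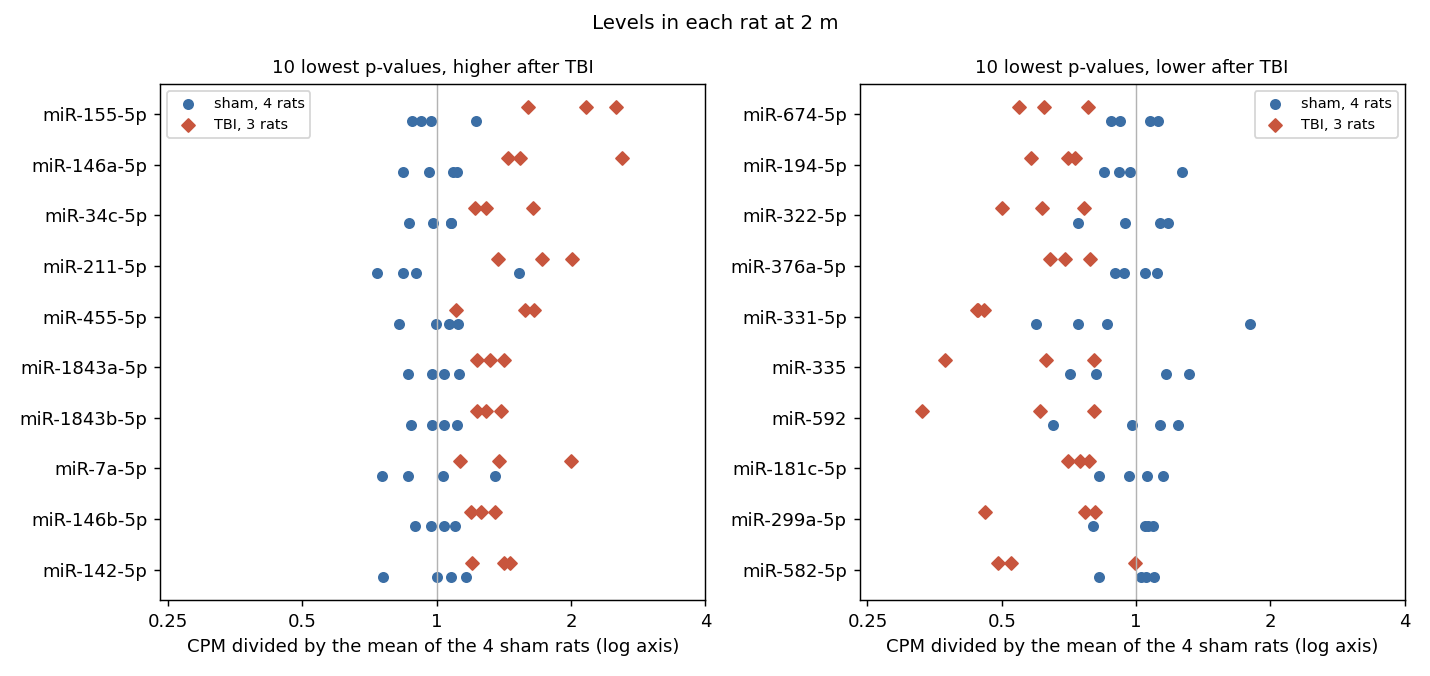
CPM of each rat divided by the mean of the 4 sham rats (horizontal log axis) for the 10 miRNAs with the lowest p-values among those higher after TBI (left) and lower after TBI (right), with sham rats as circles and TBI rats as diamonds. The groups do not overlap for miR-155-5p, miR-146a-5p, miR-34c-5p, both miR-1843 members, miR-146b-5p and miR-142-5p on the left, nor for miR-674-5p, miR-194-5p, miR-376a-5p, miR-331-5p and miR-181c-5p on the right. Over all 241 miRNAs the groups were apart in 9 with TBI above (3.73%) and 8 with TBI below (3.32%).

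Other miRNAs at the head of the higher group were of several kinds. miR-34c-5p, a p53-responsive miRNA that is also abundant in ciliated epithelium, was at 610, 539, 669.6 and 669 CPM in sham rats and at 1020, 759 and 803 CPM in TBI rats, with no overlap (log2 fold change 0.47, SE 0.17). Its cluster partner miR-34b-5p was at 67.3 to 83.1 CPM in sham rats and at 153, 79.3 and 89.4 CPM after TBI, where X748 lay inside the sham range (log2 fold change 0.51, SE 0.25). In both miRNAs rat X749 was the highest of the 7. miR-34a-5p, with the same seed but a separate gene, lay in the other direction: 378, 261, 443 and 316 CPM in sham rats and 175, 129 and 352 CPM in TBI rats, with X750 inside the sham range (log2 fold change -0.67, SE 0.33, adjusted p 0.572).

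miR-211-5p was at 35.2, 60.0, 28.8 and 32.9 CPM in sham rats and at 78.7, 67.5 and 53.7 CPM in TBI rats (log2 fold change 0.77, SE 0.28). X777 was the sham rat that overlapped the TBI rats. Its seed partner miR-204-5p, which is more abundant, was at 1400.2, 1929, 1181 and 1245 CPM in sham rats and 1998, 2152 and 1278 CPM in TBI rats (log2 fold change 0.33, SE 0.23), and X777 again had the highest sham level. All 4 choroid plexus markers, miR-204-5p, miR-211-5p, miR-448-5p and miR-764-5p, were higher after TBI (median log2 fold change 0.35), beside 109 of all 241 tested miRNAs. The summed level of these 4 markers was 1218 to 2000 CPM in sham rats and 1338 to 2230 CPM in TBI rats (two-sided exact permutation p = 0.229). How far the amount of choroid plexus in the dissected tissue sets these values was not tested.

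miR-455-5p was at 228, 275, 308 and 295 CPM in sham rats and at 458, 305 and 436 CPM in TBI rats (log2 fold change 0.53, SE 0.20), with X748 just under the highest sham rat. miR-7a-5p, which is expressed in neurons and neuroendocrine cells and restrains alpha-synuclein, was among the most abundant miRNAs. Sham rats had 27548, 37610, 49257 and 31393 CPM and TBI rats 72978, 41082 and 50275 CPM. X748 lay below the highest sham rat, and the log2 fold change was 0.59 (SE 0.24), or 0.34 with the shallow library in the fit. miR-1843a-5p was at 1449 to 1891 CPM in sham rats and at 2219, 2074 and 2387 CPM after TBI, and miR-1843b-5p at 1907 to 2408 CPM against 2797, 2672 and 3032 CPM. Both pairs of groups were apart, with log2 fold changes of 0.40 (SE 0.15) and 0.38 (SE 0.15), but the near-identical sequences mean that the counts may not be independent.

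miR-674-5p, a rodent miRNA, led the lower group. It was at 175, 137, 144 and 167 CPM in sham rats and at 85.1, 96.6 and 122 CPM in TBI rats, 1.54-fold lower (log2 fold change -0.62, SE 0.20). miR-194-5p, best known from liver and gut epithelium, was at 417, 364, 545 and 394 CPM in sham rats and at 250.0, 314 and 303 CPM in TBI rats (log2 fold change -0.57, SE 0.19). In both, all 3 TBI rats were below all 4 sham rats, as in 8 of all 241 miRNAs (3.32%). The second miRNA of the miR-194 locus, miR-192-5p, was at -0.12 on the log2 scale.

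miR-322-5p, the rodent form of miR-424, which restrains the cell cycle, was at 108, 70.7, 113 and 90.4 CPM in sham rats and at 58.8, 47.8 and 73.0 CPM in TBI rats. Only X750 reached the sham range, passing X777 (log2 fold change -0.67, SE 0.24). Within 10 kb of it on the X chromosome lie miR-542-5p, which was rarer and had a log2 fold change of -0.73 (SE 0.36), and miR-503-5p, miR-351-5p, miR-450a-5p and miR-450b-5p, whose log2 fold changes were between -0.20 and -0.02. Of these neighbors none had an unadjusted p under 0.05.

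miR-322-5p belongs to the miR-15/16 seed family, which targets cyclins and BCL2. All 6 tested members were lower after TBI, by a median of -0.34 and within -0.67 to -0.31 on the log2 scale, against a median of -0.03 for all miRNAs. Of all 241 tested miRNAs 132 were lower. Taken singly, the members were less clear. miR-497-5p was at 297, 295, 284 and 276 CPM in sham rats and at 269.5, 204 and 211 CPM in TBI rats, with no overlap, and miR-195-5p at 744, 616, 719 and 542 CPM against 442, 496 and 610 CPM. miR-15a-5p was at 57.8, 38.3, 67.0 and 47.8 CPM against 35.02, 22.4 and 51.0 CPM. Rat X750 was inside the sham range for miR-195-5p and miR-15a-5p. Of the 6 members only miR-322-5p had an unadjusted p under 0.05, beside 8 lower of all 241 miRNAs (3.32%).

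miR-376a-5p, a member of the imprinted Dlk1-Dio3 cluster that is expressed in neurons, was at 164, 141, 175 and 147 CPM in sham rats and at 123, 100.4 and 109 CPM in TBI rats, with no overlap (log2 fold change -0.50, SE 0.18). Another member, miR-299a-5p, was at 15.96, 16.2, 12.2 and 16.6 CPM against 6.97, 11.7 and 12.3 CPM. The cluster was not of one direction: of 40 tested members 16 were higher and 24 lower, beside 109 and 132 of all 241 miRNAs. The median was -0.10, and miR-493-5p was at 0.46 (SE 0.21) and miR-433-5p was at -0.43 (SE 0.23). Only miR-376a-5p among the 40 had an unadjusted p under 0.05, beside 9 higher (3.73%) and 8 lower (3.32%) of all 241.

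miR-181c-5p was at 209, 249, 179 and 229 CPM in sham rats and at 170, 152 and 162 CPM in TBI rats (log2 fold change -0.42, SE 0.18), whereas the other 3 members of the miR-181 family with the same seed lay between -0.09 and 0.03. miR-335, miR-592 and miR-582-5p had log2 fold changes of -0.73 (SE 0.30), -0.78 (SE 0.32) and -0.58 (SE 0.27), and in each of them X750 lay within the sham range. miR-331-5p had the lowest log2 fold change, -1.08 (SE 0.44), at a level of 1.44 to 4.34 CPM in sham rats and 1.06 to 1.10 CPM in TBI rats. Rat X751 set the upper end of its sham range, and with each rat left out in turn its log2 fold change ran from -1.23 to -0.66.

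For miR-30b-5p a single rat decided the call. It was at 1846, 1441, 2139 and 1664 CPM in sham rats and at 707 and 822 CPM in X749 and X748, but at 1929 CPM in X750 (log2 fold change -0.62, SE 0.32, adjusted p 0.573). Without X750 its log2 fold change was -1.13 and its adjusted p 0.0454, the only call made when any 1 of the 7 rats was left out. The rest of the miR-30 family lay between -0.18 and 0.17.

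**Figure D3:**
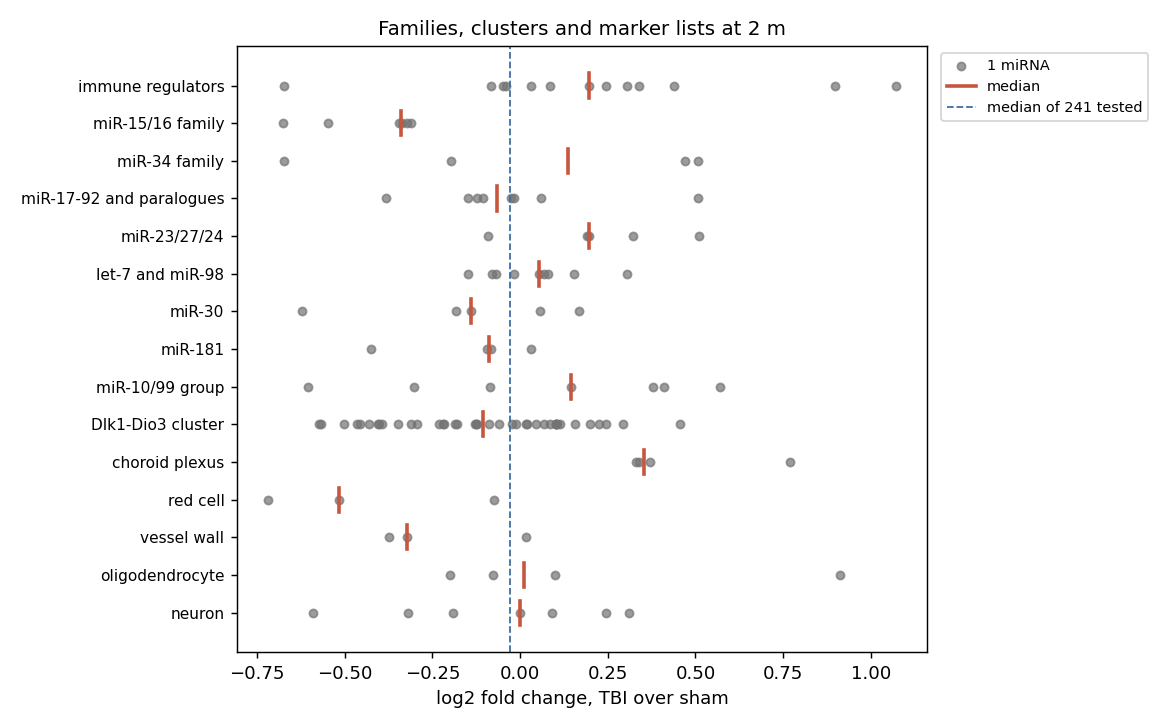
Log2 fold change of TBI over sham at 2 m (horizontal axis) for the tested members of 15 families, clusters and marker lists (rows), with 1 grey point per miRNA and a red bar at the median. The miR-15/16 members all lie left of the dashed line, which marks the median of all 241 tested miRNAs, the choroid plexus members all lie right of it, and the miR-34 members lie on both sides.

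Other families held members in both directions, beside 109 higher and 132 lower of all 241 miRNAs. The let-7 family had 5 members higher and 4 lower (median 0.05), the miR-17-92 cluster and its paralogs 2 higher and 6 lower (median -0.06), and the miR-29 family 1 higher and 2 lower (median -0.31). The miR-23/27/24 clusters had 4 of 5 members higher (median 0.20), and in miR-27b-5p all 3 TBI rats (34.2, 39.6 and 37.1 CPM) were above all 4 sham rats (26.6 to 32.8 CPM). Over all miRNAs 9 of 241 (3.73%) lay apart in this way. In the miR-10 and miR-99 group 4 were higher and 3 lower. Its most abundant member, miR-99a-5p, was at 75006, 127209, 92067 and 130994 CPM in sham rats and at 88227, 193033 and 192560 CPM in TBI rats, with X749 among the sham rats, and miR-125b-5p had a log2 fold change of -0.30 (SE 0.17). In the miR-183 cluster 2 of 3 members were higher, with a median of 0.04.

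The summed markers of every other cell type overlapped between the groups. For the counts of members given below, 109 of all 241 miRNAs were higher and 132 lower. The 3 red cell miRNAs were all lower, with miR-451-5p at 157, 84.8, 141 and 248 CPM in sham rats and 56.8, 45.4 and 186 CPM in TBI rats (log2 fold change -0.72, SE 0.49), and their sum was 299 to 539 CPM against 222 to 460.5 CPM (two-sided exact permutation p = 0.4). Vessel wall markers summed to 1495 to 2015 CPM in sham rats and 1100.1 to 2268 CPM in TBI rats, and oligodendrocyte markers to 1542 to 2133 and 1784 to 2256 CPM. Astrocyte markers summed to 310 to 383 CPM in sham rats and 356 to 515 CPM in TBI rats (two-sided exact permutation p = 0.171). Most of this sum was miR-455-5p, at 228 to 308 CPM in sham rats and 305 to 458 CPM in TBI rats. Of the 4 tested astrocyte markers, miR-455-5p was higher and 3 were lower (median log2 fold change -0.18). Among the 7 neuronal miRNAs 4 were higher and 3 lower, with a median of 0.00. In miR-138-5p, which limits dendritic spine growth, all 3 TBI rats (1611, 1287 and 1679.9 CPM) were below every sham rat (1729 to 2191 CPM), as in 8 of all 241 miRNAs (3.32%). The activity-regulated pair miR-132-5p and miR-212-5p had log2 fold changes of -0.05 and 0.19. The rat forms of 4 miRNAs that the study followed in chronic human TBI serum were 3 higher and 1 lower, with a median of 0.04. Their log2 fold changes were -0.72 for miR-451-5p, 0.06 for miR-30d-5p, 0.02 for miR-145-5p and 0.33 for miR-204-5p. In that serum the study described miR-451 as raised and miR-204-5p as lowered. Neither direction is established in this tissue, where their adjusted p-values by edgeR quasi-likelihood testing were 0.659 and 0.665.

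The 3 TBI rats were not alike as whole profiles, and the sham rats also differed among themselves. In PCA of the 241 miRNAs, component 1 held 34.0% of the variance and set 2 TBI rats at its ends, X749 at -16.6 and X750 at 10.3, with the sham rats between -1.76 and 7.10. Component 2 (27.2%) placed X748 at -14.1, and component 3 (17.1%) placed X750 at -9.86 and X749 at -6.02. On component 2 the sham rats also divided, with X751 at 8.19 and X752 at 8.84 but X777 at -3.17 and X776 at -1.65. The miRNAs with the strongest weight on component 1 included miR-124-5p, the passenger arm of a neuronal miRNA, at 170 CPM in X749 and 463 CPM in X750 against 278 to 404 CPM in sham rats, and miR-22-5p, at 924 CPM in X749 and 423 CPM in X750 against 540 to 780.4 CPM. The distance between the groups, as a pseudo-F ratio, was 1.32 and ranked 10 among the 35 splits (one-sided exact permutation p = 0.286). For 219 miRNAs with a sequence, the deviation of each library from the mean of all 7 libraries was correlated with GC content. The r lay between -0.361 (X749) and 0.373 (X748) in TBI libraries and between -0.291 (X752) and 0.276 (X777) in sham libraries. The log2 fold changes had r = -0.0291. Both groups held libraries of either sign, and centring on the mean of the 7 libraries in part enforces both signs among the 7. The sham signs followed the division on component 2, with -0.180 in X751 and -0.291 in X752 but 0.276 in X777 and 0.266 in X776. These correlations are across miRNAs within libraries, which share depth and amplification, and are given as a description.

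**Figure D4:**
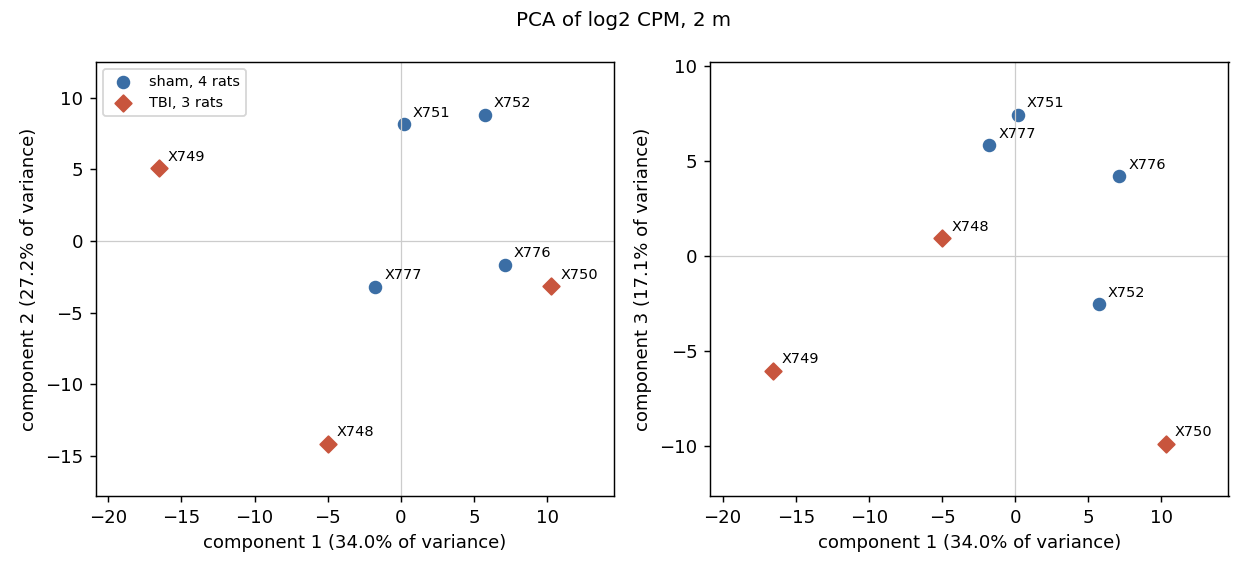
PCA scores of the 7 rats at 2 m on components 1 and 2 (left) and 1 and 3 (right), from log2 CPM of 241 miRNAs, centred and scaled, with sham rats as circles and TBI rats as diamonds. X749 (-16.6) and X750 (10.3), both TBI, lie at opposite ends of component 1, with the sham rats and X748 between them.

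The 2 m interval was then set beside the intervals on either side of it in the joint fit, where each interval has its own sham rats. The TBI effect at 2 m differed from that at 1 m for 0 of 247 miRNAs (0%; lowest adjusted p 0.117, with 32 at an unadjusted p under 0.05) and from that at 3 m for 0 of 247 (0%; lowest adjusted p 0.220, with 36). The likelihood ratio test of edgeR also gave 0 for both. In the same fit 37 miRNAs had an adjusted p under 0.05 at 1 m, 2 at 2 m and 0 at 3 m. Of the 17 miRNAs with an unadjusted p under 0.05 in the 7 libraries, 14 (82.4%) had the same direction at 1 m, compared with 54.7% of all 247, and 4 (23.5%) had it at 3 m, compared with 42.5%.

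Of the intervals 1 m, 2 m and 3 m, the mean levels of miR-146a-5p and miR-155-5p in TBI rats were highest at 1 m and lowest at 3 m. On the scale of the joint fit, miR-146a-5p averaged 1858 ± 353 CPM (SD, n = 4) in TBI rats at 1 m, 1280 ± 397 (SD, n = 3) at 2 m and 866 ± 72.1 (SD, n = 4) at 3 m, while the sham means were 711, 684 and 661 CPM. Its log2 fold change was 1.39 (SE 0.20) at 1 m, 0.90 (SE 0.21) at 2 m and 0.39 (SE 0.20) at 3 m, and the 2 m value differed from that at 1 m by -0.48 (SE 0.29, adjusted p 0.440) and from that at 3 m by 0.51 (SE 0.29, adjusted p 0.380). miR-155-5p averaged 18.3 ± 2.53, 13.3 ± 2.44 and 10.3 ± 3.20 CPM in TBI rats and 8.12, 6.32 and 8.91 CPM in sham rats. miR-142-5p averaged 186, 163 and 162 CPM after TBI and 128, 119 and 132 CPM after sham operation. The TBI effect at 2 m passed the test of a difference from neither 1 m nor 3 m for these miRNAs, and 1 m was not tested against 3 m.

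For other miRNAs it was the sham mean that differed more than the TBI mean from the neighboring intervals, a comparison that was not tested. miR-674-5p averaged 145 ± 18.1 CPM in sham rats at 2 m but 106 ± 13.7 at 1 m and 81.8 ± 7.41 at 3 m (SD, n = 4 each), while TBI rats averaged 94.8 CPM at 2 m, 104 at 1 m and 79.2 at 3 m. miR-322-5p was at 88.7 CPM in sham rats at 2 m, 75.1 at 1 m and 59.9 at 3 m, with TBI rats at 56.0, 54.0 and 60.4. miR-7a-5p was at 33805 ± 8143 CPM in sham rats at 2 m, against 57731 ± 7486 at 1 m and 50145 ± 11474 at 3 m, and its log2 fold change was 0.60 at 2 m, -0.37 at 1 m and -0.35 at 3 m. The differences from 1 m and 3 m, 0.97 (SE 0.31) and 0.95 (SE 0.31), had adjusted p-values of 0.146 and 0.220. For miR-34c-5p and miR-211-5p the sham rats at 3 m were the ones that varied, with levels from 675 to 3687 CPM and from 38.3 to 478 CPM.

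**Figure D5:**
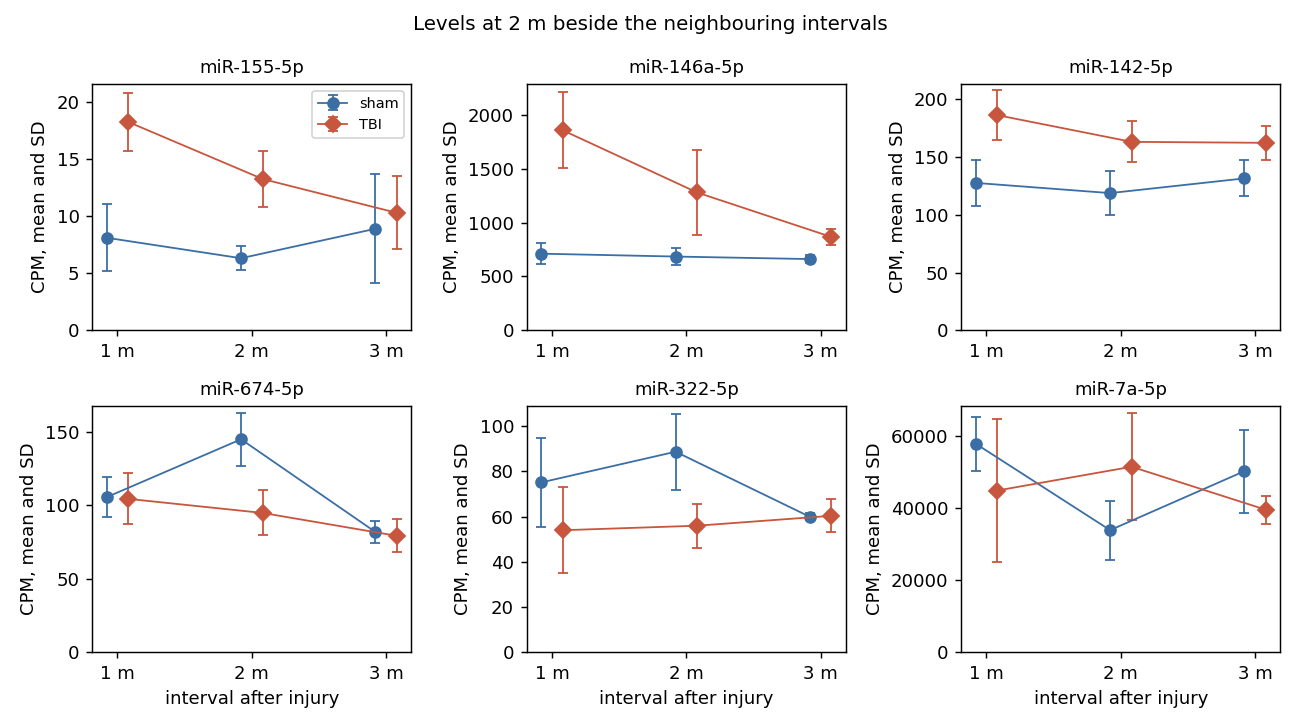
Mean CPM with SD of sham rats (circles) and TBI rats (diamonds) at 1 m, 2 m and 3 m for 6 miRNAs, scaled over 55 libraries, with 4 rats per group and 3 TBI rats at 2 m. Sham means of miR-146a-5p stay between 661 and 711 CPM, whereas the sham mean of miR-674-5p is 145 CPM at 2 m and 106 and 81.8 CPM on either side.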

How the data were processed

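Libraries were made with the NEBNext small RNA kit and sequenced on a NextSeq550. The submitters' processing notes name bcl2fastq 2.20.0.422, and the authors trimmed reads and counted them per mature miRNA with miRDeep2 against miRBase. The deposited values are raw counts, without normalization, for 367 miRNAs in 56 rats, and the handling of reads matching more than 1 miRNA is not given in the sources used here. Names carry 309 5p arms, 5 3p arms and 53 without an arm, so most 3p partners were not analysed here.

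Counts of the 7 libraries were filtered with filterByExpr, scaled by TMM and tested for injury alone by edgeR 4.0.16 quasi-likelihood (R 4.3.3) with Benjamini-Hochberg adjustment and a threshold of 0.05. The SE of a log2 fold change was taken as its size over the square root of F. DESeq2 1.42.0 was an alternative, and its unadjusted p was left missing where it gave none. Intervals were compared as interaction contrasts in a joint fit of 55 libraries with 14 group means. PCA and permutation tests used log2 CPM with a prior count of 2. Scripts were tested on simulated counts. Figures used Python 3.11.15, pandas 2.3.3 and matplotlib 3.10.9.

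Groups come from the labels, each library is a separate rat per the methods of the study, and the sequencing run is not given in the labels. No 2 libraries of a group agreed within sampling noise (lowest chi-square per degree of freedom 321). Named miRNAs were the 10 lowest p-values in each direction, 5 immune miRNAs, the 5 most abundant, and up to 4 lowest p-values of each list; miR-192-5p, the neighbors of miR-322-5p, miR-124-5p and miR-22-5p were added once their values had been seen. The interval, the miRNAs and the lists were chosen with earlier results of these data known. Of 83 named miRNAs 73 had a sequence in the RefSeq tables (GRCr8), matched by name, and 219 of 241 tested. Alternatives were other scalings, filters and tests, the joint fit, inclusion of the shallow library, leaving out each rat and, added after seeing the data, thinning all libraries to the lowest total.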

Additional observations from a re-analysis of the deposited data

Results flagged for a closer look

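The shallow library of TBI rat X747 was left out of the main comparison. Its counting interval lay wholly above every sham rat for 3 of the 10 miRNAs named as higher. Scaled to total counts alone, miR-146a-5p was at 1321 CPM in X747 (92 reads; exact 95% Poisson interval 1065 to 1621, counting error only), above the sham range of 670.5 to 856 CPM. miR-34c-5p was at 1135 CPM (79 reads; interval 898 to 1414) against 537 to 736 CPM, and miR-455-5p was at 474 CPM (33 reads; interval 326 to 666) against 247 to 324 CPM. miR-142-5p was also above every sham rat, at 259 CPM against 96.7 to 156 CPM, but its interval (18 reads; 153 to 409) reached into the sham range. In miR-7a-5p and miR-146b-5p, both named as higher, X747 lay below every sham rat. miR-7a-5p was at 21141 CPM (interval 20075 to 22249) against 29789 to 51623 CPM, and miR-146b-5p was at 3217 CPM (interval 2810 to 3667) against 3763 to 4185 CPM. With X747 in the fit the log2 fold change of miR-146b-5p was 0.20 and that of miR-7a-5p 0.34. In X747 miR-335, named as lower, was at 115 CPM (interval 49.6 to 226), wholly below the sham range of 229 to 446 CPM. miR-194-5p, miR-376a-5p and miR-181c-5p were also below, with intervals reaching the sham range. miR-30b-5p lay wholly above, at 2643 CPM (interval 2275 to 3053) against 1434 to 2242 CPM. miR-674-5p (215 CPM against 137 to 189), miR-497-5p and miR-15a-5p were also above, with intervals reaching the sham range. miR-155-5p had 0 reads in X747, and 3 reads there would be 43.1 CPM, above the level of every other rat.

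Among the 4 sham rats, X777 lay far from the others for miR-26a-5p, at 124700 CPM against 88540 to 93080 CPM. X752 lay far below the others for miR-299a-5p, at 12.2 CPM against 15.96 to 16.6 CPM. Chance flags about 1 in 20 such groups, and 2 of 46 were flagged here. Groups of 3 TBI rats were too small for this check.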

How the results depend on the processing

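The number of miRNAs with an adjusted p under 0.05 at 2 m was 0 with either other scaling, either other filter, the older quasi-likelihood fit, the shallow library included and libraries thinned to the lowest total, with 17 to 36 at an unadjusted p under 0.05 in these. It was 2 with the likelihood ratio test of edgeR, 2 with each test of DESeq2 and 2 in the joint fit, and between 0 and 1 with each rat left out (11 to 44 unadjusted). The cause was not tested. The permutation p of the pseudo-F ratio was 0.114 with total counts and between 0.0667 (without X750, the smallest that 15 splits allow) and 0.467 with each rat left out. The difference between 2 m and 1 m called 7 miRNAs with total counts, and between 0 and 3 with each 2 m rat left out: 3 without sham rat X752 (let-7f-5p, miR-218a-5p and miR-7a-5p) and 3 without TBI rat X750 (miR-218a-5p, miR-3065-5p and miR-9a-5p). Every alternative gave 0 calls for the difference between 2 m and 3 m. Of 46 named miRNAs, 43 kept their direction under every alternative that could be computed. The others were miR-21-5p (-0.0998 with total counts, -0.0286 with the shallow library, and -0.00952 without X777 to 0.244 over the rats left out), miR-218a-5p (-0.104 with total counts, -0.011 with the shallow library, and -0.122 without X749 to 0.323 over the rats left out) and miR-9a-5p (-0.0765 without X749 to 0.496). miR-155-5p ran from 0.89 to 1.22 and miR-146a-5p from 0.66 to 1.05 on the log2 scale, with adjusted p-values from 0.0205 to 0.561 and from 0.0202 to 0.561. No paired analysis was made, because each library is a separate rat given either TBI or a sham operation. Missing the threshold does not show that levels were alike, and counts of 36 to 56 reads per sham library, as for miR-155-5p, limit its precision.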
